A study of Daphnia magna with 24 samples.

Results

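In Daphnia magna exposed to short silver nanowires coated with polyvinylpyrrolidone (S-PVP-NW), 17 array features with no protein description were lower than in unexposed animals. They were selected by their measured values: all 4 S-PVP-NW values lay below all 4 Control values, the difference of group means was −1 or lower on the log2 scale, and the S-SiO2-NW minus Control difference was above −0.7. A further requirement was an empty description in the authors' deposited annotation table. Of 14338 features on the array, 175 met both S-PVP-NW conditions, 48 of them also met the S-SiO2-NW condition, and 17 of those 48 had no description. The other 31 carried one. The fall in S-PVP-NW against Control and the small change in S-SiO2-NW therefore define the members and are given as description, with no test.

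Daphnia magna is a freshwater crustacean kept as a test animal in aquatic toxicology, and whole animals were used. The exposed groups, each held for 24 h at 1/10 of the median lethal concentration (LC50) of the agent concerned, were S-PVP-NW, S-SiO2-NW (short silver nanowires coated with silica), L-PVP-NW and L-SiO2-NW (long nanowires with the same coatings) and Ag+ (dissolved, ionic silver). The reference was Control, animals kept in medium alone. Each of the 6 groups had 4 one-colour arrays, 24 in all, and about 20 animals made up each replicate. The labels name no strain, age or silver mass, nor do they say whether replicates came from separate cultures, so p-values measure only the spread between these arrays.

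An undescribed feature on this array is a probe to an expressed sequence whose search against known proteins returned no described match in the authors' table. Such sequences can be short transcript fragments, non-coding ends of known transcripts, or genes of one lineage, and the table does not tell these apart. Described transcripts of 3 kinds serve as landmarks. Cuticle proteins bind chitin to form the exoskeleton, which a daphnid sheds and rebuilds at each moult. Vitellogenin is the precursor of egg yolk. Trypsin, chymotrypsin, carboxypeptidase and amylase are secreted into the gut and digest food.

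Array floors, taken as the 1st percentile of intensity, were 41 to 43 in S-PVP-NW, 42 to 45.4 in S-SiO2-NW, 48 to 50 in L-PVP-NW, 45 to 46 in Ag+, 41 to 43 in L-SiO2-NW and 46 to 50 in Control. The S-PVP-NW and Control floors did not overlap, and for the selection the exposure and a difference in scanning cannot be told apart. In RNA of whole animals, fewer cells of a type and less RNA per cell cannot be told apart either. None of the 17 features had a missing value or reached the highest value in the table.

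Probe sequences are shown for 7 of the 17 features. Residuals within groups were closest to the cuticle features for 3 of them (DM12525P1, DM12567P1 and DM08562P1). They were about as close to vitellogenin as to cuticle for DM10599P1, and closest to vitellogenin for DM08004P3 and DM11336P1. DM12448P2 was closer to the digestive enzymes (r = 0.82) than to vitellogenin (0.56) or cuticle (0.16). DM08856P2, DM07499P1 and DM11460P1, whose probes are not shown, were closer still to the enzymes (0.91, 0.87 and 0.86). The sequences shown are the authors' probes from the deposited table, written 5′ to 3′. Capitals mark the longest exact run that any 2 of the 17 share.
DM12525P1: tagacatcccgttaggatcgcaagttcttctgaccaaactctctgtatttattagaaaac
DM12567P1: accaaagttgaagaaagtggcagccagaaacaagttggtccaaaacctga
DM08562P1: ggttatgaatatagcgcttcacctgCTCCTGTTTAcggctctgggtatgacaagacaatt
DM10599P1: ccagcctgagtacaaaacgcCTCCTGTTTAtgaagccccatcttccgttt
DM08004P3: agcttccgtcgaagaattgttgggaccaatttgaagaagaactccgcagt
DM11336P1: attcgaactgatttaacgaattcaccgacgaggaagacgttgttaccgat
DM12448P2: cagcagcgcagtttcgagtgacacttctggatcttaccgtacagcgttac

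The 17 probes were 14 of 50 bases and 3 of 60 bases, with a median GC content of 48% (38.3 to 58%), equal to the 48% median of all 802 undescribed features in the authors' table. No 2 of the 17 share an ID stem. Over the 136 pairs of members and both strands, the longest shared run was the 10 bases shown, in DM08562P1 and DM10599P1. That length is not unusual: each of the 17 shares a run of 10 to 16 bases with some other probe among the 1825 in the table. No pair of members therefore rests on overlapping probes.

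Matches to sequence of the related species Daphnia pulex, as the authors' table gives them, had an E value (the number of equally good matches expected by chance) of 0.001 or less for 6 of the 17 features (35.3%). The share was 333 of 799 (41.7%) among all undescribed features with such a value, and 757 of 1024 (73.9%) among described ones. The closest match was that of DM11222P3, with 204 of 226 positions identical (E = 1e-73). DM12567P1 had 181 of 225 identical (2e-20), DM12494P1 99 of 116 (1e-19), DM14994P1 45 of 46 (8e-17), DM12448P2 56 of 63 (4e-12) and DM07499P1 22 of 22 (0.0003). For the other 11, including the 2 with the largest falls, the best match had an E value above that limit.

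The selection favours bright features, since one near the floor on every Control array cannot fall by 1 or more. The undescribed features were bright relative to the array. Their mean Control intensity ran from 125.2 to 7065 with a median of 360.2, against a median of 66.8 over all features, and 16 of 17 stood above the 75th percentile of Control means. A feature is called dim on an array where it is below 2 times that array's lower quartile. On each S-PVP-NW array 5 to 8 of the 17 were dim, against 2 on each Control array. The features dim on all 4 S-PVP-NW arrays were DM12494P1, DM12845P2, DM08856P2 and DM11460P1, and their falls are given as lower bounds.

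**Figure D1:**
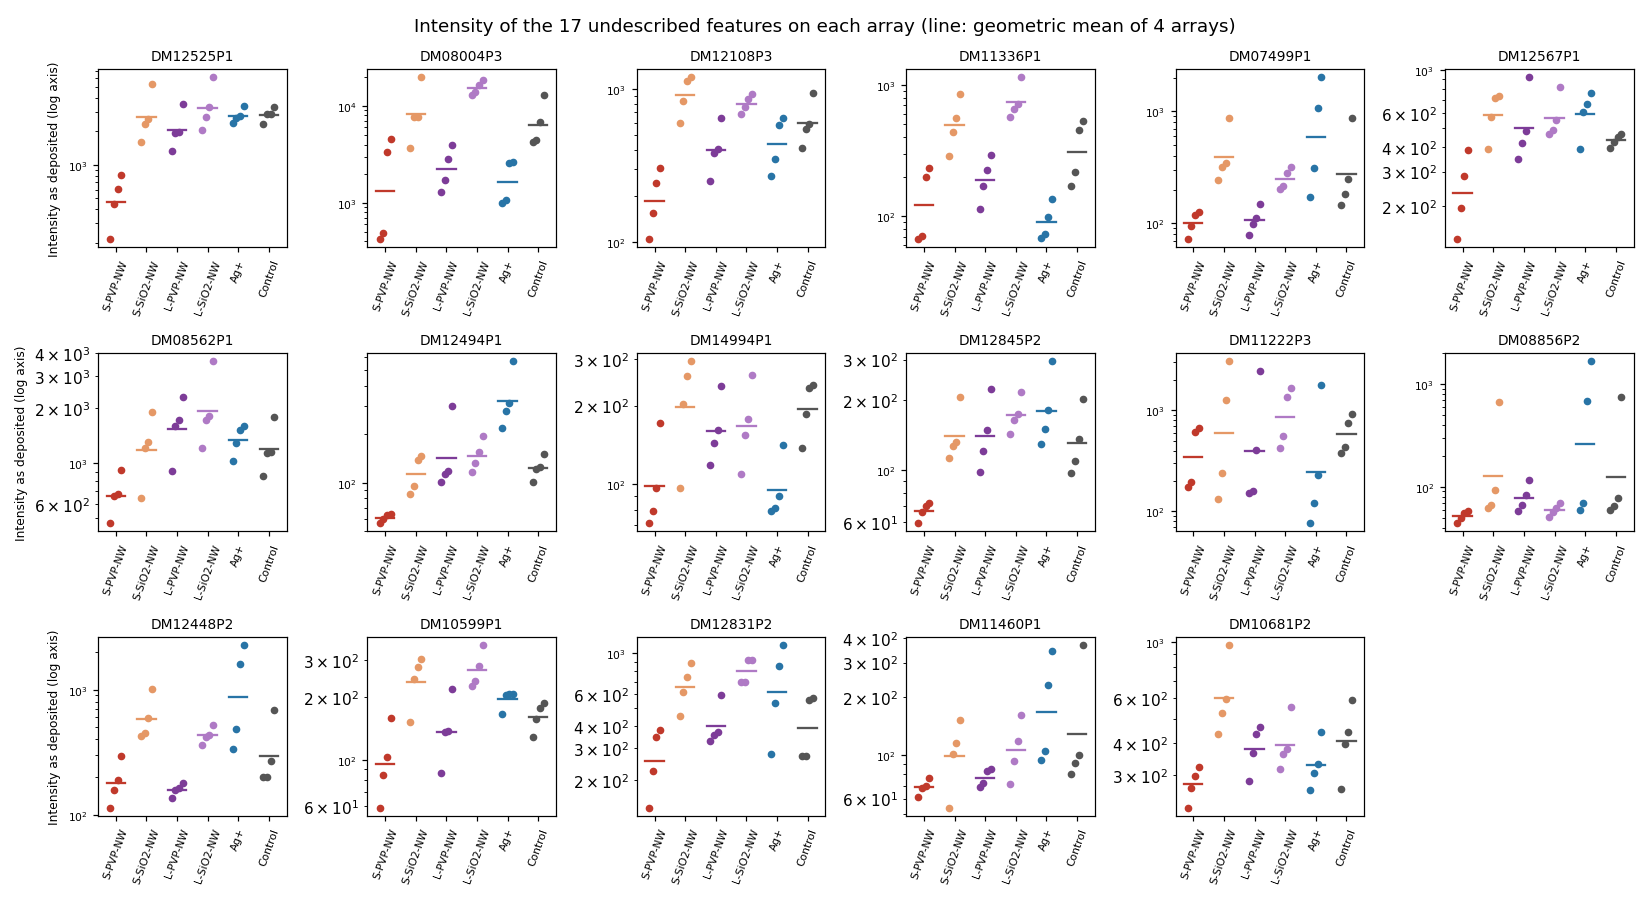
Intensity as deposited (log axis) of each of the 17 undescribed features on the 24 arrays, 1 panel per feature, with 4 points per group in order of value and a line at their geometric mean. S-PVP-NW lies lowest or near lowest in most panels. DM11222P3 has its lowest array in Ag+ (76, against 174 in S-PVP-NW). In DM08004P3, DM11336P1 and DM14994P1 the lowest array is in S-PVP-NW, but the highest Ag+ array lies below the highest S-PVP-NW array. DM08856P2 is high on 1 array each of S-SiO2-NW and Control and on 2 of Ag+.

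The feature with the largest fall in S-PVP-NW differed less from Control in L-PVP-NW, Ag+ and L-SiO2-NW, which took no part in the selection. Its S-SiO2-NW difference was held above −0.7 by the selection. DM12525P1 had intensities of 215, 603, 802 and 449 on the S-PVP-NW arrays, against 2846, 3281, 2859 and 2305 on the Control arrays. Its groups were far apart, and its difference of −2.93 (7.63-fold lower in S-PVP-NW) was the largest of the 17. In the other exposures DM12525P1 differed from Control by −0.60 in S-SiO2-NW, −0.47 in L-PVP-NW, −0.39 in Ag+ and −0.19 in L-SiO2-NW, and none of these groups was separated from Control.

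DM12108P3 had 105, 243, 307 and 155 in S-PVP-NW, against 414, 586, 545 and 939 in Control, a difference of −2.12. Its L-PVP-NW arrays (405, 251, 641 and 379) also fell below Control after normalisation, by 0.64, although the deposited intensities overlap. DM12567P1 had 135, 285, 385 and 196 in S-PVP-NW, against 470, 452, 395 and 423 in Control. Control arrays were close together (435 ± 33, SD, n = 4), and the difference was −1.35. DM08562P1 had 468, 674, 918 and 659 in S-PVP-NW, against 1803, 1148, 850 and 1141 in Control. Its difference was −1.29, and S-PVP-NW 3 lay above Control 3 before arrays were scaled to each other.

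Within groups DM12525P1, DM12567P1 and DM08562P1 moved with the cuticle features. DM12108P3 was less close to them, and about as close to the vitellogenin features. Of 34 features described as cuticle or cuticular, the mean log2 value was taken on each array, group means were subtracted from it and from every feature, and the residuals were correlated over 24 arrays. Arrays share RNA input, scan and scaling, so the values are descriptions. Pearson's r was 0.87 for DM08562P1 (Spearman's rho 0.80), 0.86 for DM12525P1 (0.78) and 0.86 for DM12567P1 (0.80). It was 0.68 for DM12845P2 (0.72), 0.61 for DM10599P1 (0.68), 0.53 for DM12494P1 (0.55), 0.51 for DM10681P2 (0.40) and 0.48 for DM12108P3 (0.55).

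Over the 17 features the median r with the cuticle mean was 0.47, 15 of 17 values were above 0 and 7 exceeded 0.5, whereas the median of 13978 other features was 0.00 and 3.56% of them exceeded 0.5. The other features were not matched to the 17 in brightness, here or below. Of all 14338 features, 9065 were dim on all 4 S-PVP-NW arrays, against 4 of the 17. With the 19 cuticle features whose protein match had an E value of 0.001 or less, the median of the 17 was 0.46. Without the 2 arrays farthest from the cuticle median, L-SiO2-NW 3 and 4, the 3 highest were 0.81 for DM12525P1, 0.80 for DM12567P1 and 0.76 for DM08562P1, while DM10681P2 dropped to 0.27 and the median of the 17 to 0.27. Over the 12 arrays of Ag+, L-PVP-NW and L-SiO2-NW, none of which chose the members, the median was 0.37 and 7 of 17 exceeded 0.5 (15.1% of other features), with 0.94 for DM08562P1, 0.79 for DM10681P2, 0.75 for DM12567P1 and 0.63 for DM12525P1 (rho 0.48). DM12845P2 had 0.35 there, DM10599P1 0.33 and DM12494P1 −0.21. Group means were not removed from values over the 12 arrays, here and below. Differences between those groups therefore enter them, and they do not repeat the within-group measure. The lowest residual values over 24 arrays were −0.29 for DM08856P2, −0.04 for DM14994P1, 0.05 for DM11222P3, 0.06 for DM11460P1 and 0.13 for DM07499P1, although DM14994P1 had 0.70 over the 12 arrays.

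**Figure D2:**
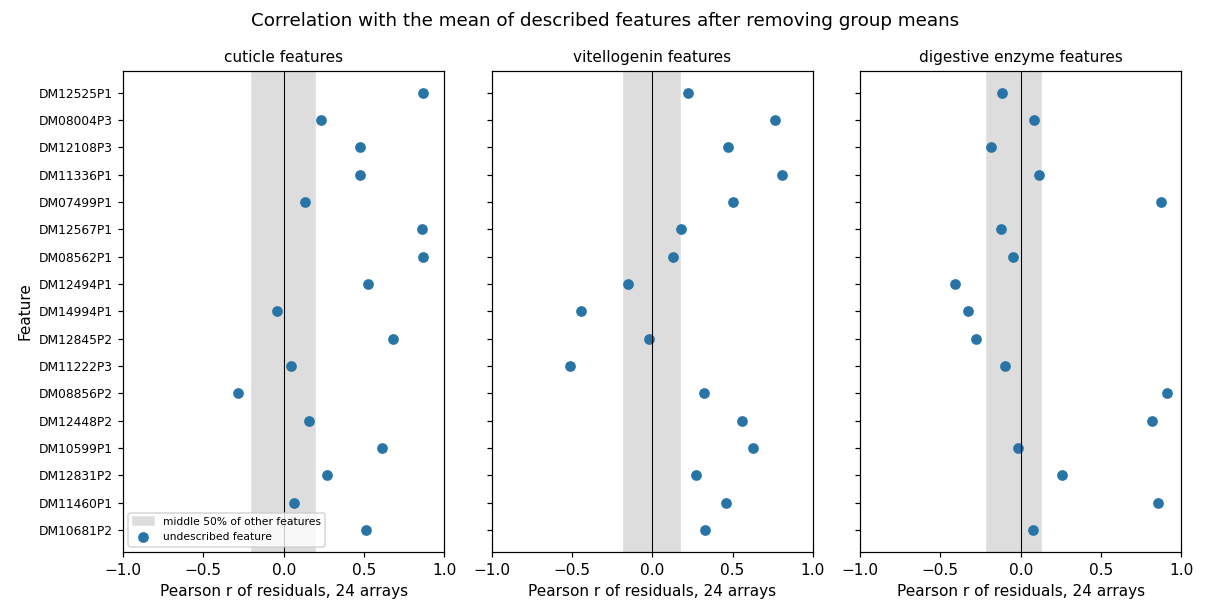
Pearson r between each undescribed feature and the mean of described cuticle, vitellogenin or digestive enzyme features over 24 arrays, after group means were removed. The grey band holds the middle 50% of the other features, which were not matched in brightness. DM12525P1, DM12567P1 and DM08562P1 exceed 0.85 with cuticle, DM08004P3 and DM11336P1 reach 0.76 and 0.81 with vitellogenin, and 4 features reach 0.82 to 0.91 with digestive enzymes.

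The nearest neighbours of these features within groups included cuticle descriptions. For DM12525P1 it was DM06653P1 (r = 0.93, rho = 0.85, and 0.52 over the 12 arrays) and for DM08562P1 it was DM06459P3 (r = 0.92, rho = 0.95, and 0.70). Both are described as a putative cuticle protein, from protein matches with E values of 0.54 and 0.078, so the descriptions are uncertain. At an E value of 0.001 or less, DM08562P1 was most like DM06063P3, Cuticular protein 49Aa (r = 0.85, and 0.93 over the 12 arrays). The feature most like DM12567P1 was undescribed (DM08569P2, r = 0.91), and among features whose protein match had an E value of 0.001 or less it was cuticular protein 77 of the RR-1 family (DM02191P2, r = 0.80, and 0.50 over the 12 arrays). The nearest such feature to DM12525P1 was DM01743P3 (r = 0.90, and 0.63 over the 12 arrays), described as Spätzle 2-like, and Spätzle is a Toll ligand in Drosophila.

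The cuticle features themselves had a median difference of −1.58 for S-PVP-NW, −0.78 for S-SiO2-NW, −0.15 for the long PVP wires, −0.36 for the long silica wires and −0.69 for Ag+, each against Control. In the same order the 17 undescribed features had medians of −1.27, −0.19, −0.47, −0.13 and −0.12. The S-SiO2-NW value of the 17 is limited by the selection, which also kept 17 of the 19 cuticle features that met both S-PVP-NW conditions out of the set that met all 3.

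With vitellogenin 5 of the 17 had a residual r above 0.5, and DM08004P3 and DM11336P1 had the highest values. DM08004P3, the brightest of the 17, had 422, 4561, 3329 and 492 in S-PVP-NW, against 6795, 4402, 4237 and 12827 in Control, a difference of −2.54. The deposited intensities overlap, since S-PVP-NW 2 exceeds Control 2 and 3, and the groups separate only after normalisation, by 0.24. DM11336P1 had 67, 200, 232 and 71 in S-PVP-NW, against 451, 218, 169 and 533 in Control, a difference of −1.77, with 2 S-PVP-NW arrays dim and the same overlap before scaling. Replicates 1 and 4 of S-PVP-NW were low in both features and replicates 2 and 3 were higher.

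Outside S-PVP-NW this pair had another profile than the cuticle-following features. DM08004P3 had 2825, 1711, 1293 and 3960 in L-PVP-NW (−1.52 against Control) and 2565, 2625, 996 and 1070 in Ag+ (−2.36), but 16349, 12968, 18661 and 13924 in L-SiO2-NW (0.92). All 4 L-SiO2-NW arrays lay above and all 4 Ag+ arrays below all Control arrays after normalisation. DM11336P1 had 136, 99, 68 and 73 in Ag+ (−2.02, dim on 3 arrays), below every Control array, and 714, 565, 1151 and 652 in L-SiO2-NW (0.76).

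DM08004P3 and DM11336P1 correlated with each other at r = 0.86 within groups (rho = 0.88) and at 0.95 over the 12 arrays of Ag+, L-PVP-NW and L-SiO2-NW. The feature on the array most like DM08004P3 within groups was DM02255P1, described as vitellogenin fused with superoxide dismutase (r = 0.97, rho = 0.93, and 0.99 over the 12 arrays). The one most like DM11336P1 was DM01546P3, with the same description (r = 0.87, rho = 0.87, and 0.95). With the mean of the 13 vitellogenin features, r was 0.76 for DM08004P3 and 0.81 for DM11336P1. It was 0.63 for DM10599P1 (0.63 over the 12 arrays), beside 0.61 with cuticle (0.33 over the 12 arrays). DM12448P2 had 0.56 and DM07499P1 0.50 with vitellogenin, below their values with digestive enzymes. For DM12108P3 r was 0.47 with vitellogenin beside 0.48 with cuticle, and 0.62 beside 0.56 over the 12 arrays.

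A further 4 features followed the digestive enzymes. Control 4 was the highest Control array in each, as it also was in DM08004P3, DM12108P3, DM11336P1, DM10599P1 and DM10681P2. DM08856P2 had 50, 55, 44 and 58 in S-PVP-NW, dim on every array, against 78, 65, 60 and 755 in Control. It was dim on the other 3 Control arrays, and the difference of −1.20 (at least 1.17-fold lower) is −0.37 without Control 4. DM11460P1 had 68, 70, 77 and 61 in S-PVP-NW, against 80, 101, 92 and 369 in Control, with a difference of −1.04 (at least 1.36-fold lower) and −0.62 without Control 4, again dim on the other 3 Control arrays.

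DM07499P1 had 72, 95, 126 and 119 in S-PVP-NW, against 145, 246, 181 and 869 in Control, and DM12448P2 had 114, 188, 294 and 158 in S-PVP-NW, against 199, 271, 201 and 683 in Control. Their differences of −1.75 and −1.11 were −1.34 and −0.86 without Control 4, so DM07499P1 stayed past the limit of −1 without that array and DM12448P2 did not. In Ag+ the highest values were on replicates 3 and 4. DM07499P1 had 173, 309, 1071 and 2037 there, and DM12448P2 had 333, 489, 2276 and 1604. Their mean differences from Control in Ag+ were 0.65 for DM07499P1, 0.95 for DM08856P2, 1.11 for DM12448P2 and 0.16 for DM11460P1. In L-PVP-NW they were −1.49 for DM07499P1, −0.61 for DM08856P2 and −0.94 for DM12448P2. DM11460P1 was dim on all 4 L-PVP-NW arrays and was at least 1.07-fold lower there, and DM07499P1 and DM08856P2 were dim on 3. In L-SiO2-NW the differences were −0.57 for DM07499P1, −0.43 for DM11460P1 and 0.06 for DM12448P2. DM08856P2 was dim on all 4 L-SiO2-NW arrays and at least 1.24-fold lower. It was also dim on 3 S-SiO2-NW and 2 Ag+ arrays.

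With the mean of the 26 digestive enzyme features, r within groups was 0.91 for DM08856P2, 0.87 for DM07499P1, 0.86 for DM11460P1 and 0.82 for DM12448P2. The middle 50% of other features ran from −0.21 to 0.13. Over the 12 arrays of Ag+, L-PVP-NW and L-SiO2-NW these 4 features had 0.83, 0.60, 0.58 and 0.53 in that order. There 11.4% of other features exceeded 0.5. Spearman's rho with this mean exceeded 0.5 for 4 of the 17 within groups and for 1 over the 12 arrays. Dependence on single bright arrays was not tested for this list, and no version limited by E value was run. DM08856P2 was most like DM04058P1, a feature of this list described as a chymotrypsinogen (r = 0.98, rho = 0.97). That protein match had an E value of only 0.54. At 0.001 or less the feature most like DM08856P2 was DM02265P4, described as a phage related lysozyme (r = 0.97). DM07499P1 was most like DM02721P1, described as a muscle-type fatty acid-binding protein, a carrier of lipids inside cells (r = 0.93, rho = 0.93). DM07499P1 and DM12448P2 had r = 0.89 with each other, the highest of the 136 member pairs, whose median was 0.14. The 3 patterns were drawn up after the values were seen.

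DM12494P1 had 60, 64, 63 and 56 in S-PVP-NW, dim throughout, against 152, 126, 122 and 101 in Control (at least 1.43-fold lower), and DM12845P2 had 59, 72, 70 and 66 in S-PVP-NW, against 203, 136, 110 and 97 in Control (at least 1.53-fold lower). Both were low and even in S-PVP-NW, and they had r = 0.74 with each other within groups. They diverged in Ag+, where DM12494P1 had 279, 314, 571 and 218 (1.01 above Control) and DM12845P2 had 150, 130, 296 and 181 (0.11).

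DM14994P1 had 171, 71, 79 and 97 in S-PVP-NW, against 239, 186, 138 and 234 in Control, a difference of −1.27. It was lower than every Control array also in Ag+ (81, 90, 79 and 141, a difference of −1.32) and in L-SiO2-NW (−0.67) after normalisation. DM11222P3 had 613, 174, 670 and 193 in S-PVP-NW, against 435, 914, 377 and 745 in Control. Its groups overlapped in deposited intensity and separated by 0.01 after normalisation, with a difference of −1.20, and replicates of every exposure were widely spread, from 153 to 2439 in L-PVP-NW and from 76 to 1766 in Ag+. The sodium/potassium-transporting ATPase alpha subunit (DM02022P2), the pump that keeps ion gradients across membranes, was the feature with a protein match at an E value of 0.001 or less most like it (r = 0.90, rho = 0.88).

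DM10599P1 (59, 103, 159 and 84 in S-PVP-NW, against 128, 177, 157 and 187 in Control) and DM12831P2 (142, 347, 381 and 225 in S-PVP-NW, against 272, 273, 570 and 553 in Control) each had −1.06. DM10681P2 (267, 323, 298 and 223 in S-PVP-NW, against 444, 265, 396 and 594 in Control) had −1.01, the smallest fall. Without Control 4 its difference was −0.997, outside the limit. All 3 overlapped in deposited intensity. DM10681P2 was most like DM00927P2, described as muscular protein 20 (r = 0.80, rho = 0.74).

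**Figure D3:**
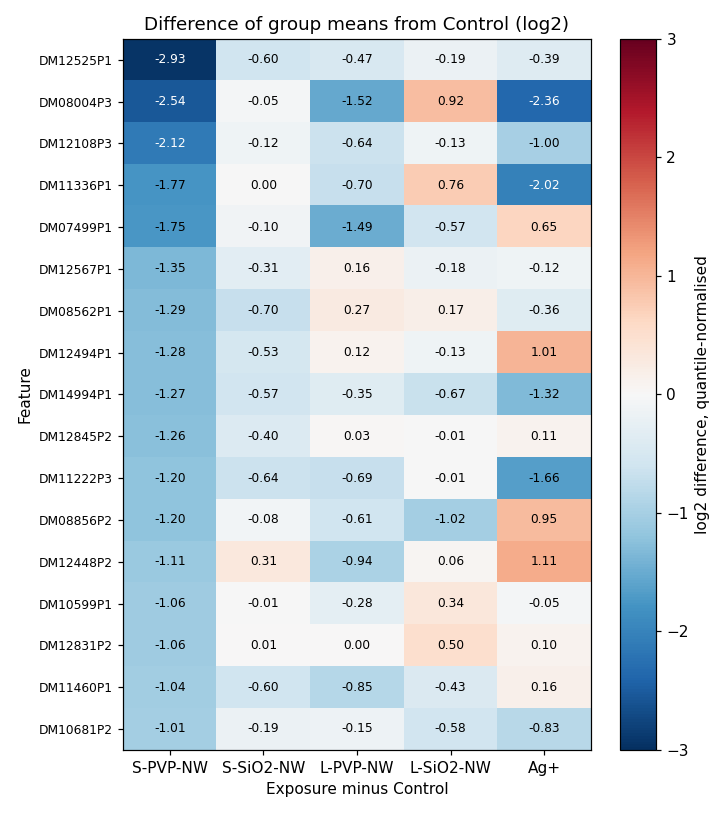
Difference of group means from Control (log2, quantile-normalised) for the 17 undescribed features in each exposure, ordered by the S-PVP-NW difference from −2.93 to −1.01. The S-PVP-NW column is set by the selection, while Ag+ ranges from −2.36 for DM08004P3 to 1.11 for DM12448P2.

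Against Control, all 17 features had every S-PVP-NW array below every Control array, as the selection requires, where 3.58% of all features did and 5.16% had every array above. In S-SiO2-NW none lay below (4.24% of all features) and none above (6.5%), and the differences ran from −0.70 to 0.31. In L-PVP-NW 2 lay below, DM12108P3 and DM12448P2 (1.33%), and none above (2.08%), with 12 of 17 differences below 0 and a median of −0.47. In L-SiO2-NW 1 lay below, DM14994P1 (4.02%), and 1 above, DM08004P3 (4.87%). In Ag+ 3 lay below, DM08004P3, DM11336P1 and DM14994P1 (7.71%), and none above (11.1%). All 5 comparisons use the Control arrays that chose the members, which favours values below 0, so these counts are given without a test.

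The medians outside both PVP groups depended on scaling. With arrays centred on their medians, the member median was 0.34 in S-SiO2-NW, 0.41 in L-SiO2-NW and 0.35 in Ag+, all above 0, against −0.49 in L-PVP-NW and −0.95 in S-PVP-NW. A common 75th percentile shifted the median of all features by −0.26 in S-PVP-NW, −0.47 in S-SiO2-NW, −0.39 in L-SiO2-NW and −0.28 in Ag+. In S-PVP-NW all 17 differences were below 0 under each of the 6 scalings compared, a sign that the selection on these same arrays favours. Separation from Control held for 17 of 17 with quantile normalisation, where the selection requires it. It held for 14 with a common 75th percentile, 9 with median centring and 8 in deposited intensities.

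Ag+, L-PVP-NW and L-SiO2-NW took no part in the selection, and differences among these 3 groups were tested with limma over all 14338 features (two-sided, Benjamini-Hochberg adjusted p under 0.05, n = 4 arrays per group). In L-SiO2-NW minus L-PVP-NW, 1 of the 17 features was called, against 4.83% of all features. DM08004P3 was 5.45-fold higher in L-SiO2-NW (2.45 ± 0.68, SE, limma adjusted p = 0.044), with no overlap between the groups. It was not called when any 1 of L-PVP-NW A, B or C or of the 4 L-SiO2-NW arrays was left out, nor when the floor of each array entered the fit, where the difference was 0.39 (adjusted p = 0.978, limma, with a range of 0.0169 to 0.978 over all alternatives). With the floor in the fit, 0 of all 14338 features were called. Without it DM11336P1 had 1.46 ± 0.48 (limma adjusted p = 0.0827).

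In L-PVP-NW minus Ag+, 4 of the 17 were called (15.7% of all features). DM12448P2 was 4.15-fold lower in L-PVP-NW (−2.05 ± 0.43, limma adjusted p = 0.00446; 180, 136, 162 and 158 in L-PVP-NW, against 333, 489, 2276 and 1604 in Ag+), with no overlap. DM07499P1 was lower by 2.14 on the log2 scale (−2.14 ± 0.58, limma adjusted p = 0.0181) and DM12494P1 by 0.90 (−0.90 ± 0.29, 0.041). DM14994P1 was 1.95-fold higher in L-PVP-NW (0.96 ± 0.30, 0.0327), with 3 of the 4 Ag+ arrays dim. DM12448P2 alone stayed called whichever array of the 2 groups was left out. DM07499P1 was not called without Ag+ 3, Ag+ 4 or L-PVP-NW B, while DM12494P1 was called only in 2 of the 8 leave-outs (Ag+ 4 and L-PVP-NW C), as was DM14994P1 (Ag+ 4 and L-PVP-NW D). When the floor of each array entered the fit none of the 4 was called. Over all 14338 features 30 were called in that fit, against 2245 without the floor. Differences there were −1.61 for DM12448P2, −1.57 for DM07499P1, −0.98 for DM12494P1 and 0.37 for DM14994P1.

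In L-SiO2-NW minus Ag+, 3 of the 17 were called (7.59% of all features). DM11336P1 was 6.84-fold higher in L-SiO2-NW (2.77 ± 0.48, limma adjusted p = 0.00149) and DM08004P3 9.73-fold higher (3.28 ± 0.68, 0.00556), both without overlap and both called without any single array. DM12494P1 was lower in L-SiO2-NW (−1.14 ± 0.29, limma adjusted p = 0.0191; 156, 116, 194 and 133 in L-SiO2-NW, against 279, 314, 571 and 218 in Ag+). It was not called without Ag+ 2, Ag+ 3, L-SiO2-NW 1 or L-SiO2-NW 2. None of these 3 was called when the floor entered the fit, where the differences were 2.35 for DM11336P1 (limma adjusted p = 0.097, over a range of 0.000508 to 0.097), 2.07 for DM08004P3 and −1.02 for DM12494P1. Over all features 348 were called in that fit, against 1088 without the floor. Floors were 41 to 43 in L-SiO2-NW, 48 to 50 in L-PVP-NW and 45 to 46 in Ag+, without overlap. In these 3 contrasts a difference in scanning and the exposure cannot be told apart.

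**Figure D4:**
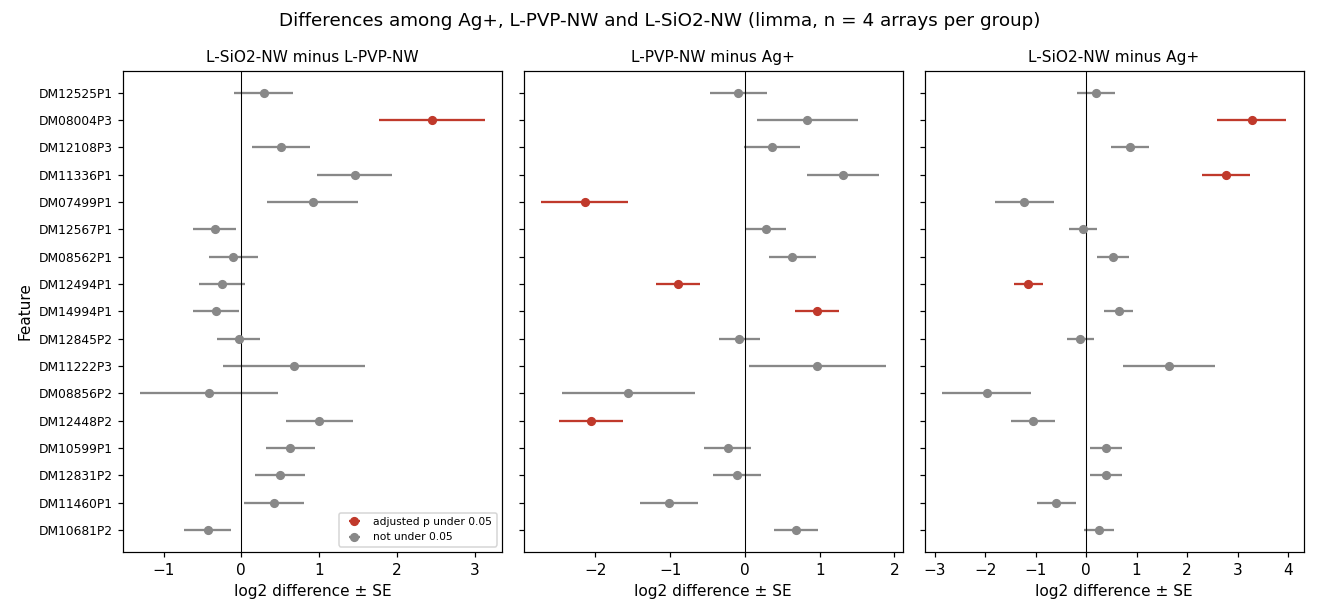
Log2 differences with SE among the 3 groups that did not choose the members (limma, n = 4 arrays per group), with red for adjusted p under 0.05. DM08004P3 and DM11336P1 stand to the right in L-SiO2-NW minus Ag+ at 3.28 and 2.77, and DM07499P1 and DM12448P2 to the left in L-PVP-NW minus Ag+ at −2.14 and −2.05.

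At the edges of the selection, DM10681P2 (−1.01), DM11460P1 (−1.04) and DM12831P2 (−1.06) lay just inside the S-PVP-NW limit and DM11359P1 (−0.99), DM10786P1 (−0.98) and DM12594P1 (−0.93) just outside it. For S-SiO2-NW, DM08562P1 (−0.70), DM11222P3 (−0.64) and DM12525P1 (−0.60) lay just inside, and DM11939P1, DM08347P3 and DM10614P3 (−0.74, −0.74 and −0.75) just outside. Without the S-SiO2-NW condition 72 undescribed features would have been included.

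The authors' deposited table lists an S-PVP-NW ratio for all 17 features, from −3.0 for DM12525P1 to −0.3 for DM08856P2, and 13 of the 17 lie within 0.2 of the differences computed here. For 3 features the values were over 0.3 apart. The authors' ratio was −0.3 for DM08856P2 where the mean of all arrays gave −1.20, −0.6 for DM11460P1 (−1.04 here) and −2.9 for DM08004P3 (−2.54 here). The ratios of DM08856P2 and DM11460P1 lie outside the limit of −1, as do their differences without Control 4 (−0.37 and −0.62). An L-PVP-NW ratio is listed for 4 features, DM08004P3 (−1.6), DM07499P1 (−1.4), DM12448P2 (−0.9) and DM11460P1 (−0.6). The authors' deposited table has an L-SiO2-NW ratio for DM08004P3 (1.0), an Ag+ ratio for DM11336P1 (−2.2) and DM14994P1 (−1.4), and an S-SiO2-NW ratio for none.

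The 31 described features that met the same conditions on values had a median S-PVP-NW difference of −1.62, against −1.27 for the 17, and −0.50 for the long PVP wires, −0.06 for the long silica wires and −0.56 for Ag+. They included 5 of the 13 vitellogenin features, 2 of the 34 cuticle features and 1 of the 26 digestive enzyme features. The described features whose residuals were most like the mean of the 17 were DM01555P3, a vitellogenin fused with superoxide dismutase (r = 0.80), DM07141P1, a hypothetical protein (0.79), DM02191P2, the cuticular protein 77 (0.78), and the unnamed protein products DM02996P2 (0.75) and DM04316P1 (0.73). The matches of DM07141P1 and DM04316P1 had E values of 4.5 and 1.2, so their descriptions carry little weight.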

How the data were processed

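The deposited intensities are whole numbers from one-colour arrays and were not scaled between arrays. Per the labels' protocols, 300 ng of Trizol-extracted RNA was labelled with Cy3 by the Agilent Quick-Amp kit. The labels state no scanner settings. The authors' deposited table gives log2 ratios over medium control, to 1 decimal, for some features, and E values of sequence searches, without stating a test or threshold. The 310 values of 0, all on Ag+ 2, were treated as missing. Log2 intensities were then quantile-normalised over 24 arrays without background correction, the scale that defines the members, and normexp at an offset of 50 was an alternative. Group means over all 24 arrays were fitted with limma 3.58.1 in R 4.3.3 (eBayes without trend, prior df 1.71). The fit was tested on simulated data. Differences of dim features are understated, because background stays in the values. A lower bound replaces a fall where all 4 exposed arrays were dim, with each array raised to its dim limit.

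Lists came from word matches in the authors' descriptions. Within groups the median r of the 17 was 0.32 with vitellogenin, −0.01 with digestive enzymes, −0.02 with chitin, 0.10 with ribosomal proteins and 0.10 with muscle. Named features are those with the largest falls, the highest Control means, values nearest the limits, calls in the tested contrasts, extreme cuticle correlation and nearest neighbours. The members and lists were chosen with earlier results of these data known. Alternatives were other scalings, filters, fits and leaving out each array. Residuals of same-numbered arrays of different groups correlated at a median of −0.08 (−0.45 to 0.43). This range overlapped that of other-numbered arrays (−0.57 to 0.56), so it cannot decide whether replicates were paired.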

Additional observations from a re-analysis of the deposited data

Results flagged for a closer look

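Within groups of 4, an array was marked where its gap to the nearest other array exceeded 0.829 of the group's range on the normalised scale. Of 108 groups tested 8 were marked, where chance marks about 1 in 20. DM08856P2 had 668 on S-SiO2-NW 3, against 62 to 92 on the other S-SiO2-NW arrays, and 755 on Control 4, against 60 to 78. DM12525P1 had 1323 on L-PVP-NW D, against 1927 to 3495, and DM14994P1 had 119 on the same array, against 144 to 237. DM08004P3 had 18661 on L-SiO2-NW 3, against 12968 to 16349. DM14994P1 had 239 on Control 1, against 138 to 234, and DM11222P3 had 914 on Control 2, against 377 to 745. DM10681P2 had 262 on Ag+ 4, against 305 to 443.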

How the results depend on the processing

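The number of members depended on the conditions more than on the background correction. It was 14 with normexp, 16 after centring on medians, 20 after matching 75th percentiles, and, in alternatives chosen after seeing the data, 22 in unscaled intensities and 15 after subtracting each array's floor. Shared with the 17 were 14, 4, 11, 5 and 15 features. Without the S-SiO2-NW condition there were 72, with a limit of −1.5 there were 5, without the overlap condition 51, and with S-PVP-NW below Control in all 4 same-numbered pairs (the replicate block) 27. Leaving out single arrays gave 14 to 33, with 27 without Control 1, 33 without S-PVP-NW 4, and 14 without Control 4, which shared 10 with the 17. The member median became 0.34 in S-SiO2-NW, 0.41 in L-SiO2-NW and 0.35 in Ag+ with median centring, and 0.36 and 0.40 in S-SiO2-NW and L-SiO2-NW without scaling. The cause was not tested. The median cuticle correlation, 0.47, was 0.33 to 0.49 over single arrays left out and 0.27 without L-SiO2-NW 3 and 4.

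Called members in L-SiO2-NW minus L-PVP-NW numbered 3 with median centring, 3 with matched 75th percentiles, 2 with array weights, 0 with the floor as a covariate and 0 to 2 with single arrays left out, against 1. Over all features the 692 calls there became 1189 with median centring, 5733 with matched 75th percentiles, 1612 with array weights and 0 with the floor. In L-PVP-NW minus Ag+ the 4 became 2 where a difference of 1 or more was required, 0 with the floor and 1 to 4 with single arrays left out (1 without Ag+ 3 or L-PVP-NW B, 2 without Ag+ 2 or L-PVP-NW A). In L-SiO2-NW minus Ag+ the 3 became 1 with the floor, DM14994P1, and 2 to 4 with single arrays left out. The replicate block gave 3 there, the same features, and was not run with L-PVP-NW, whose replicates carry letters. From the 8 arrays compared alone the counts were 1, 3 and 2. In L-PVP-NW minus Ag+ the 3 included DM08562P1, while DM07499P1 and DM12494P1 were not called (limma adjusted p = 0.0759 and 0.110). In L-SiO2-NW minus Ag+ DM12494P1 was not called (limma adjusted p = 0.0796). No called feature changed direction under the alternatives run. The number of arrays limits precision.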
